A study of Ovis aries with 17 samples.

Results

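Sheep macrophages (MP) sorted from spleen were compared with sheep dendritic cells grown in culture (MoDC, monocyte-derived dendritic cells). The comparison used 6 of the 17 one-colour arrays of the series, the 3 labelled macrophage (replicates 1 to 3) and the 3 labelled MoDC (replicates 1 to 3), chosen by those labels alone. MP were spleen cells sorted by flow cytometry with an antibody to CD14. MoDC came from 3 independent cultures with the growth factor GM-CSF, and the study's text gives bone marrow cells as their source, so that what was cultured may not have been purified monocytes. The study used female Prealpe sheep, and their age and any activating stimulus are not given in the sources used here. Where a sort gave too little RNA, that of several animals was combined, on arrays that are not named, so an MP array is not always 1 animal. The groups therefore differ in tissue of origin, in culture and in isolation at once, and these cannot be told apart. The study placed the sheep subsets among those of other species, and MP and MoDC are its 2 groups of the monocyte lineage.

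Macrophages are resident phagocytes. In the spleen they clear old red cells and microbes, and they depend on the receptor for colony stimulating factor 1, encoded by *CSF1R*. GM-CSF culture of monocytes or marrow cells gives cells that resemble the dendritic cells of inflamed tissue, which take up antigen, express costimulatory molecules and secrete cytokines. PPARG is a lipid-sensing nuclear receptor known to be induced by GM-CSF in such cells.

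All values are log2 signals of a probe relative to the array's 75th percentile of signals, so a value of 0 lies at that percentile and each unit is a 2-fold step. Differences are MP minus MoDC on this scale, with the standard error (SE) of a limma fit to all 17 arrays in which the slide was a block. A gene was called at an adjusted p under 0.05 (Benjamini-Hochberg over 11311 genes) and at least a 2-fold difference. A probe is said to be above background where the scanner software marked its spots as well above the local background. Where a gene was below background on every array of a group, a lower bound of the fold is given. Low signals depend on the background correction, so such bounds and the differences of dim genes hold on the scale of the deposited background-corrected signal. Of the 25 called named genes with a bound, the bound exceeded the fold of another correction (normexp, which adds an offset to every signal) in 22 and that in the deposited series table in 8, and 8 of the 25 were still called with normexp and 21 in the series table. Those folds are given beside the genes concerned.

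The MP and MoDC arrays of the same replicate number shared a slide. The 75th percentile of the signals ranged from 194 to 491 on the MP arrays and from 379 to 688 on the MoDC arrays, and 61.1% to 72.5% of spots were above background. Across the 11311 genes, Pearson's r between replicates was 0.941 to 0.961 in MP. MoDC replicates 1 and 2 had an r of 0.975, whereas MoDC replicate 3 had an r of 0.866 and 0.882 with them, close to the highest r between an MP and a MoDC array (0.865). MoDC replicate 3 thus stood apart, and results that rest on it are given with and without it. In bulk RNA such as this, fewer cells of a type and less RNA per cell cannot be told apart.

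Most probes of this array carry no gene symbol. Symbols were known for 424 genes, of which 270 passed the filter on low signals and were tested. Of these 270 genes, 116 (43.0%) were called, beside 3416 of all 11311 genes (30.2%). Among them 72 were higher in MoDC (26.7%, beside 13% of all genes) and 44 were higher in MP (16.3%, beside 17.2% of all genes). The genes with symbols are not a random sample of the array, so their shares describe them and nothing else. The gene lists used below are not complete. A count of measured members leaves out measured genes of the same kind that are not on the list. One sequence is listed under the names *PTGS2* and *PGHS2* and was counted under both, so that the 116 called genes are 115 distinct sequences and the 44 higher in MP are 43. The median difference was 0.11 over the named genes and 0.22 over all genes. In 127 named genes (47.0%) the MP and MoDC arrays did not overlap, beside 36.7% of all genes. All MP arrays were above all MoDC arrays in 52 of them (20.2% of all genes) and all MoDC arrays above all MP arrays in 75 (16.5% of all genes). Of the 116 called genes, 111 differed in the same direction on all 3 slides. On the other hand, 4 of the 116 (*SOHLH1*, *SMAD1*, *CLEC9A* and *RARB*) were not well above background on any of the 6 arrays, and no fold is given for them. None of the 4 was called with normexp, in the series table or with the 6 arrays alone.

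**Figure D1:**
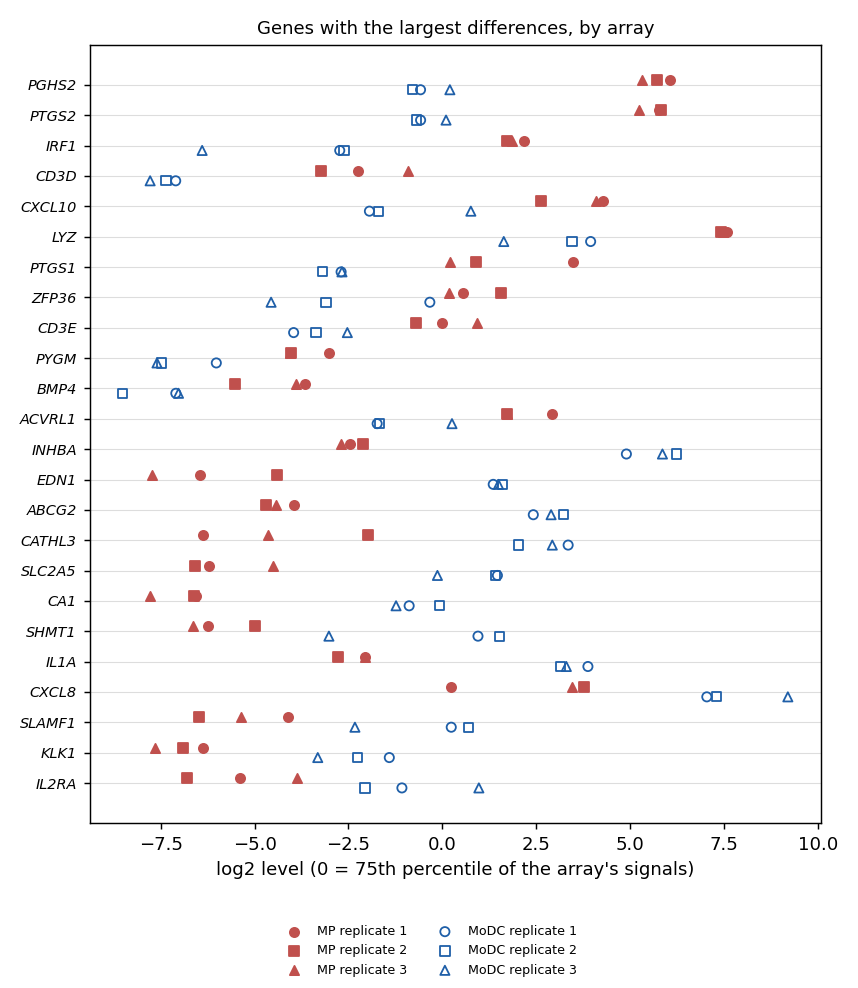
Log2 level of each gene on each array, relative to the 75th percentile of that array's signals, for the 12 named genes called highest in MP and the 12 called highest in MoDC that held on every slide and without MoDC replicate 3. Filled red symbols are MP, open blue symbols are MoDC, and the shape gives the replicate number. *PTGS2* and *PGHS2* are 1 sequence, so the MP panel holds 11 distinct sequences. In all 24 genes the groups do not overlap, and the MoDC replicate 3 triangle lies away from the other MoDC arrays in *IRF1* and *SHMT1*.

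The monocyte and macrophage markers were examined first. *CD14*, the gene of the sorting marker, was 5.29, 6.84 and 6.23 on MP replicates 1 to 3 and 5.87, 6.03 and 6.75 on MoDC replicates 1 to 3. The groups overlapped, and the difference was -0.09 ± 0.37 (SE, adjusted p = 0.86), so that the gene did not separate sorted macrophages from cultured cells. A second *CD14* probe had a difference of 0.40 and was not called either. *CSF1R*, the receptor gene on which macrophages depend, was -0.71, -0.51 and -0.07 in MP and -3.48, -4.22 and -2.92 in MoDC. It was thus higher in MP on every slide, 8.63-fold on average (3.11 ± 0.54 SE, adjusted p = 0.00137) and 4.14-fold with normexp. *LYZ*, which encodes lysozyme, was between 7.42 and 7.58 in MP and 3.95, 3.45 and 1.63 in MoDC. Its difference was 4.48 ± 0.57 (SE, adjusted p = 0.000183), and 3.70 without MoDC replicate 3. The integrin *ITGAM* (-0.50 ± 0.40 SE) and the phagosomal metal transporter *SLC11A1* (0.70 ± 0.74 SE) were not called. Of the 31 genes on this list 5 were measured, and 2 were called, both higher in MP (40%, beside 17.2% of all genes). The median difference of the list was 0.70, against 0.22 for all genes.

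*PTGS2* was among the genes with the largest differences toward MP. It encodes the inducible cyclooxygenase and *PTGS1* the constitutive one, enzymes that make the precursor of all prostaglandins. The files list *PTGS2* also as *PGHS2*, an older name of the same enzyme, and the probes under both names were found to hold identical bases over all 60 positions. They are therefore 2 measurements of 1 sequence. The first 30 bases of these probes are shown because they decide how the pair is read, beside those of *PTGS1*, whose probe shares no more than 6 bases in a row with them. *INHBA* also had 2 probes of 1 sequence, and *ABCG2*, described below, had 1 probe. Capitals mark sequences that occur on 2 probes, and the files give no position or strand for them.
PTGS2: CTGAATCTGGGAATTTGGAATATGTGTGTT
PGHS2: CTGAATCTGGGAATTTGGAATATGTGTGTT
PTGS1: gtcctcatccaggtctcaactcacggcagc
INHBA, probe 1: AACATCATCAAGAAGGACATCCAAAACATG
INHBA, probe 2: AACATCATCAAGAAGGACATCCAAAACATG
ABCG2: cctctttaatttcaatgatttaccccccat

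The *PTGS2* probe was 5.77, 5.81 and 5.25 in MP and -0.58, -0.69 and 0.10 in MoDC. Its copy under the name *PGHS2* was 6.05, 5.72 and 5.30 in MP and -0.58, -0.80 and 0.20 in MoDC. The copies differed by at most 0.28 on any of the 6 arrays, far less than the difference between the groups. That difference was 5.998 ± 1.06 (SE, adjusted p = 0.00145), or 63.9-fold, and without MoDC replicate 3 it was 6.24. *PTGS1* was 3.48, 0.91 and 0.20 in MP and -2.70, -3.19 and -2.67 in MoDC. MP replicate 1 was high, yet all MP arrays lay above all MoDC arrays (4.38 ± 0.96 SE, adjusted p = 0.00491), by 3.64 without MP replicate 1. *SLCO2A1*, which encodes a transporter that takes up prostaglandins, went the other way. It was below background on all MP arrays and -2.15, -1.48 and -5.08 in MoDC, at least 3.85-fold higher there (adjusted p = 0.000473), but 1.78-fold with normexp, where it was not called (adjusted p = 0.0642). The prostaglandin D synthase gene *PTGDS* was not called (-0.57 ± 0.53 SE). Of the 28 names on the list 5 were measured, 3 were called higher in MP (2 genes, since *PTGS2* and *PGHS2* are 1 sequence) and 1 higher in MoDC, 60% and 20% beside 17.2% and 13% of all genes. The median of the list was 4.38 with the shared sequence under both names and 1.91 with each of the 4 sequences taken once.

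Among the largest differences of all named genes was that of *INHBA*, which encodes the subunit of activin A, a secreted member of the TGF-beta family. It was -2.45, -2.11 and -2.71 in MP and 4.90, 6.24 and 5.86 in MoDC. The values of each group were close together and the groups lay far apart, 272-fold on average (-8.09 ± 0.53 SE, adjusted p = 2.51e-06) and 140-fold with normexp. The other *INHBA* probe gave -8.11. *FST*, the gene of follistatin, which binds and inactivates activin, was not called (0.09 ± 0.73 SE). Higher in MP were *ACVRL1*, a receptor of the family, *BMP4* and *BMP7*, both ligands, and the signal transducer *SMAD1*, which was below background on all 6 arrays and was lost without any single array other than MoDC replicate 2 (adjusted p from 0.0551 to 0.165). *ACVRL1* was 2.91, 1.72 and 1.71 in MP and -1.74, -1.68 and 0.26 in MoDC, with MoDC replicate 3 nearest to MP (3.17 ± 0.88 SE, adjusted p = 0.0168). It lost the call without MP replicate 1 (adjusted p = 0.0562), MP replicate 2 (adjusted p = 0.0643) or MoDC replicate 1 (adjusted p = 0.0726). *BMP4* was above background on 2 MP arrays and no MoDC array, at least 2.54-fold higher in MP (adjusted p = 0.000327), but 1.86-fold with normexp, where it was not called, and 2.04-fold in the series table. *BMP7* was low throughout, -4.11 ± 0.64 in MP and -6.14 ± 1.01 in MoDC (SD, n = 3 each, adjusted p = 0.00282), and above background on 1 MoDC array. With normexp its difference was 0.89 and under the 2-fold limit. Of 14 measured genes on the list of the family 4 were called higher in MP, 1 higher in MoDC and 9 neither way, with 2 called higher in MP where MP replicate 2 was left out and 1 with normexp. The share called, 35.7%, lay near that of all genes (30.2%) and below that of the named genes (43.0%). Not called were the receptors *ACVR1*, *ACVR2B*, *BMPR1B* and *BMPR2*, among others, although *ACVR2B* was called higher in MP without the slide block (adjusted p = 0.0404). Outside the list, the receptor gene *AMHR2* was called higher in MP (2.14), above background on 1 array of each group and not called with normexp (0.95). *AMH* was not called. The *BAMBI* probes disagreed, since the one used differed by -0.02 and the other by 1.87 (adjusted p = 0.0121).

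Most of the cytokine and chemokine genes called were higher in the cultures. Of 13 measured genes on the list 8 were called higher in MoDC, 1 higher in MP and 4 neither way (*CXCL1*, *IL15*, *IL7* and *IL10*), with a median difference of -2.04. These are 61.5% higher in MoDC, beside 13% of all genes, and 7.69% higher in MP, beside 17.2%. Without MoDC replicate 1 the count higher in MoDC was 5, and so it was with normexp, where the median was -0.73. With the 6 MP and MoDC arrays alone it was 4. Outside the list, *MCP-3* (-4.28) and *XCL1* (-2.36) were called higher in MoDC, and *CCL25* and *IL12* were not called. Neither call held with normexp (adjusted p = 0.2 and 0.0723). *MCP-3* lost the call without any single array other than MoDC replicate 3. *XCL1* lost it without MP replicate 2 or 3 or MoDC replicate 1 or 3. *IL1A*, an alarm cytokine of the interleukin-1 family, was -2.06, -2.77 and -2.05 in MP and 3.87, 3.15 and 3.30 in MoDC. All MoDC arrays lay over 5 units above their MP partner (-5.73 ± 0.69 SE, adjusted p = 0.000137). *CXCL8*, the neutrophil-attracting chemokine, was high in both, 0.23, 3.77 and 3.44 in MP and 7.04, 7.30 and 9.20 in MoDC. MoDC replicate 3 was the highest and MP replicate 1 the lowest array (-5.36 ± 0.79 SE, adjusted p = 0.000471), and without the latter the difference was -4.37. *MIF*, the macrophage migration inhibitory factor, was within 0.71 to 1.07 in MP and 6.04, 3.97 and 3.00 in MoDC (-3.41 ± 0.64 SE, adjusted p = 0.00205). MoDC replicate 1 was the highest, and without it the difference was -2.47. *IL6* was below background on all MP arrays and at least 2.57-fold higher in MoDC (adjusted p = 0.0031), but 1.27-fold with normexp, where it was not called (adjusted p = 0.45). *TNF* was 3.01, 1.20 and 1.85 in MP against 3.52, 3.83 and 4.82 in MoDC (-2.04 ± 0.46 SE, adjusted p = 0.00584). With the 6 arrays alone it was not called (adjusted p = 0.0739), and a dimmer *TNF* probe, at -0.81, was not called either. *IL18* had a smaller difference, -1.09 ± 0.22 (SE, adjusted p = 0.00285), which missed the threshold without the slide block (adjusted p = 0.0633) and with the 6 arrays alone (adjusted p = 0.161). It was under the 2-fold limit without MoDC replicate 1 (-0.96), after quantile normalization (-0.995), with normexp (-0.91) and in the series table (-0.82).

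*IL1B* did not hold across the cultures. It was 1.35, 0.80 and 2.64 in MP and 5.39, 5.09 and 2.23 in MoDC, so MoDC replicates 1 and 2 lay far above MP and MoDC replicate 3 among the MP arrays. The differences within slides were -4.03, -4.29 and 0.41. Its mean difference was -2.64 ± 0.70 (SE, adjusted p = 0.0139), and without MoDC replicate 3 it was -3.75 (adjusted p = 0.000304). Leaving out MP replicate 1, MP replicate 2, MoDC replicate 1 or MoDC replicate 2 ended the call, with differences of -2.10, -2.25, -2.24 and -1.92 and adjusted p of 0.0673, 0.0703, 0.0538 and 0.0722. *VEGFA*, a growth factor for blood vessels, was -5.51, -3.16 and -6.32 in MP and -1.18, -3.21 and -2.28 in MoDC, with no difference on slide 2 (0.05). It was above background on 1 MP array, its mean difference of -2.77 (adjusted p = 0.0362) came near the threshold, and it was lost without MoDC replicate 1 or 3 (adjusted p = 0.121 and 0.0831) and without MP replicate 1 or 3 (adjusted p = 0.135 and 0.163). With normexp it was not called (-0.73, adjusted p = 0.207). The exception toward MP was *CXCL10*, a chemokine that attracts T cells, at 4.27, 2.61 and 4.10 in MP and -1.94, -1.69 and 0.76 in MoDC (4.62 ± 0.84 SE, adjusted p = 0.00171), with a difference of 3.97 without MP replicate 1. *IL10*, which encodes an anti-inflammatory cytokine, was 1.99, 3.03 and 0.55 in MP and between -0.13 and 0.06 in MoDC. Its groups did not overlap, but its difference of 1.90 ± 0.68 (SE) had an adjusted p of 0.0506. It was called higher in MP after quantile normalization (1.85, adjusted p = 0.0491), with normexp (1.64, adjusted p = 0.011), in the series table (1.70, adjusted p = 0.018), without the slide block (adjusted p = 0.0423) and without MP replicate 3 (2.52) or MoDC replicate 3 (2.21).

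**Figure D2:**
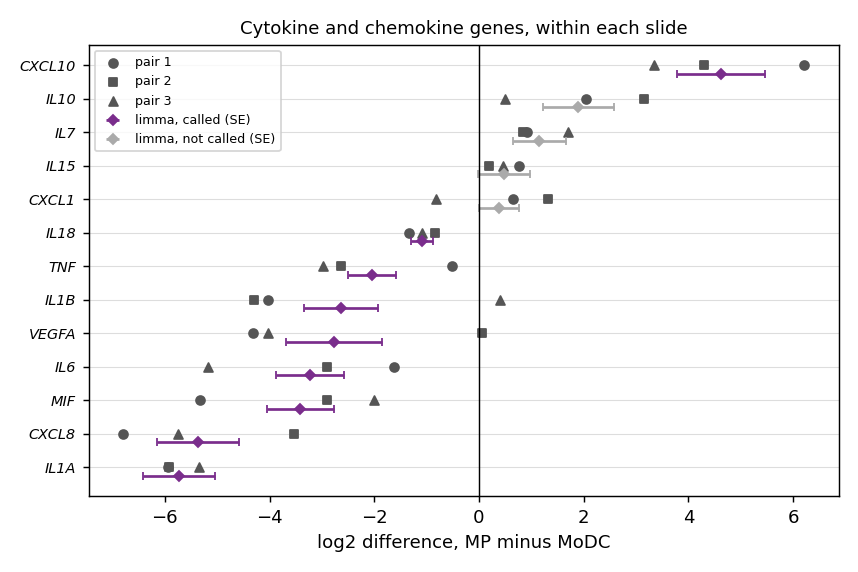
Difference between MP and MoDC on the log2 scale for the 13 measured genes on the cytokine and chemokine list, within each of the 3 slides (grey points, 1 pair of arrays each) and as fitted with limma (diamonds with SE, purple where called). The 8 genes called higher in MoDC lie left of 0, except for *IL1B* in pair 3 (0.41) and *VEGFA* in pair 2 (0.05), and *CXCL10* lies right of 0 in all pairs.

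Of the transporter genes, *ABCG2* and *SLC2A5* differed most, both above background on 1 MP array. *ABCG2*, which encodes an efflux pump for drugs and porphyrins, was -3.96, -4.70 and -4.43 in MP and 2.42, 3.22 and 2.89 in MoDC. The values within each group lay within 1 unit, and the groups differed by -7.21 ± 0.41 (SE, adjusted p = 1.16e-06). Since 2 of the MP values were not above background, the size depended on the background correction. It was -4.94 with normexp (30.8-fold) and -5.76 in the series table (54.2-fold), called in both. *SLC2A5*, the fructose transporter gene, was -6.20, -6.58 and -4.50 in MP and 1.46, 1.42 and -0.13 in MoDC (-6.68 ± 1.16 SE, adjusted p = 0.00131). Its difference was -3.20 with normexp, -4.97 in the series table and -5.89 without MoDC replicate 1. *ABCB1*, which encodes the drug efflux pump P-glycoprotein, was above background on no MP array and on MoDC replicates 1 and 2 (-1.21 and -1.70), at least 4.27-fold higher in MoDC (adjusted p = 0.000722), but 1.95-fold with normexp, where it was not called (adjusted p = 0.0535). The other 3 of the 6 measured genes on the transporter list, among them the glucose transporter *SLC2A3* (0.14 ± 0.45 SE), were not called, and none was called higher in MP. The 3 called are 50% of the list, beside 13% of all genes. Outside the list, *SLCO2A1*, given above, *SLC17A5* (-1.39), *SLC12A4* and *SLC6A4* were called higher in MoDC. *SLC12A4* and *SLC6A4* were below background on all MP arrays, at least 2.06-fold and 1.12-fold higher in MoDC, and not called with normexp (-0.15 and 0.17). *SLC12A4* was lost without MP replicate 2 or MoDC replicate 2.

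Genes of lipid handling were split between those higher in MoDC and those not called. *PPARG* was -0.24, -1.24 and -0.45 in MP and 2.91, 3.39 and 2.90 in MoDC, 13.1-fold higher in MoDC with little spread (-3.71 ± 0.40 SE, adjusted p = 6.91e-05). *LPL*, the gene of lipoprotein lipase, was below background on all MP arrays and -1.56, -2.72 and 0.92 in MoDC, at least 13.2-fold higher there (adjusted p = 0.000676), but 3.35-fold with normexp and 5.79-fold in the series table, called in both. Without MoDC replicate 3 its difference was -3.31 in place of -4.46. *SCD*, which encodes the desaturase that makes oleic acid, was -4.92 ± 0.74 in MP and -1.95 ± 1.34 in MoDC (SD, n = 3 each, adjusted p = 0.00182), and its difference of -2.97 was -2.19 without MoDC replicate 1 and not called with normexp (-0.77). *STAR*, a mitochondrial cholesterol carrier, was -4.14 ± 0.62 in MP and -1.36 ± 1.24 in MoDC (SD, n = 3 each, adjusted p = 0.00745), with MoDC replicate 3 lowest at -2.79 and a difference of -1.36 with normexp. The lipid droplet gene *PLIN2* was called as well (-1.83 ± 0.36 SE). Of the 11 measured genes on the list 5 were thus higher in MoDC (45.5%, beside 13% of all genes), and 1, *TSPO*, was higher in MP (1.86 ± 0.64 SE, adjusted p = 0.0421). The *TSPO* call rested on a low value of 0.74 on MoDC replicate 3 and was lost without it (0.72), as it was without MP replicate 1, 2 or 3 (adjusted p = 0.0657, 0.0918 and 0.154) and with the 6 arrays alone (adjusted p = 0.149). The list as a whole had a median of -0.02, since *ACLY*, *CPT1A*, *CPT1B*, *DGAT1* and *ABHD5* were not called. *SQLE*, a gene of cholesterol synthesis that is not on the list, was called higher in MoDC (-1.90), as it was with normexp (-1.99) and in the series table (-1.79).

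Among the 11 measured genes on the transcription factor list 4 were called higher in MP and *PPARG* alone higher in MoDC. These are 36.4% and 9.09% of the list, beside 17.2% and 13% of all genes. Without MP replicate 2, MP replicate 3 or MoDC replicate 2 the count higher in MP was 2, about the share of all genes, as it was with the 6 arrays alone. Outside the list, *AHR*, *CREM*, *FOXO3A*, *FOXO4* and *RARA* were called higher in MP and *YBX1* (-1.43) higher in MoDC, while others such as *SOX9* were not called. *AHR* and *FOXO4* lost the call with normexp, *CREM* and *FOXO4* in the series table, and *RARA* without MoDC replicate 2 (0.91). *IRF1*, an interferon-induced factor, was 2.17, 1.72 and 1.86 in MP and -2.73, -2.62 and -6.40 in MoDC. It was not above background on MoDC replicate 3, and its difference of 5.83 ± 0.84 (SE, adjusted p = 0.000411) was 4.58 without that array, 4.01 with normexp and 4.12 in the series table. *TCF4*, known as the factor of plasmacytoid dendritic cells, was between -1.02 and -0.56 in MP and -2.59, -2.15 and -6.27 in MoDC. Its difference of 2.92 ± 0.77 (SE, adjusted p = 0.0129) fell to 1.55 without MoDC replicate 3 and was no longer called without MP replicate 3 (adjusted p = 0.0644). With normexp it was 1.61. *ERA*, the estrogen receptor alpha gene, was low in both (-4.17 ± 1.09 and -6.19 ± 0.71, SD, n = 3 each, adjusted p = 0.0205) and above background on 1 MoDC array. It was not called with normexp (0.76) or in the series table (0.95), and it lost the call without MP replicate 2 or 3 (adjusted p = 0.0961 and 0.0851) or MoDC replicate 1 or 2 (adjusted p = 0.0754 and 0.0766). *IRF8* and *BATF3* (0.04 ± 0.38 SE), factors of dendritic cell development, were not called. The *IRF8* probes disagreed, since the one used differed by 0.83 ± 0.27 (SE), under the 2-fold limit (1.099 and called in the series table), and the dimmer one by 1.58 ± 0.49 (SE, adjusted p = 0.0277), which passed it.

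The interferon response list held *IRF1* and *CXCL10*, the 2 of its 6 measured genes that were called, both higher in MP (33.3%, beside 17.2% of all genes). The antiviral genes *MX1* (-0.14 ± 0.60 SE), *MX2* (0.84 ± 1.03 SE) and *ISG15* (0.93 ± 1.05 SE) were not called. On slide 1 they were higher in MP by 1.57, 3.91 and 3.76, and on slides 2 and 3 they were lower in MP. MP replicate 1 was the highest MP array in each.

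Dendritic cell markers did not move together. Of 10 measured genes 4 were called higher in MP, 1 higher in MoDC and 5 neither way (40% and 10% called, beside 17.2% and 13% of all genes), including the costimulatory genes *CD86* (-0.51 ± 0.27 SE) and *CD80* (0.28 ± 0.42 SE). *SLAMF1*, a receptor of activated lymphocytes and dendritic cells, was the gene higher in MoDC. It was below background on all MP arrays and 0.24, 0.69 and -2.33 in MoDC, at least 19.5-fold higher there (adjusted p = 0.00022), but 3.73-fold with normexp and 10.9-fold in the series table, called in both. The genes called higher in MP were *TCF4*, *FLT3*, *XCR1* and *CLEC9A*, markers of dendritic cells that are not monocyte-derived. *CLEC9A* was below background on all 6 arrays and was lost without MP replicate 1, 2 or 3 or MoDC replicate 2 (adjusted p from 0.0583 to 0.199). *FLT3*, a receptor of dendritic cell precursors, was -1.71, -0.88 and -0.996 in MP and -2.60, -2.98 and -1.85 in MoDC (1.28 ± 0.31 SE, adjusted p = 0.00869). Without MP replicate 2 it lost the call (adjusted p = 0.0531), and without MoDC replicate 2 its difference was 0.99, just under the 2-fold limit. *XCR1* differed by 1.24 ± 0.38 (SE, adjusted p = 0.0254), by 0.93 without MoDC replicate 3 (adjusted p = 0.0767) and with an adjusted p of 0.0555 without the slide block. It was also lost without MP replicate 2 or 3 (adjusted p = 0.0773 and 0.137), after quantile normalization (0.92), with normexp (0.82) and in the series table (0.60). Without MP replicate 2 or with normexp, 1 gene of the list was called higher in MP in place of 4, and without MP replicate 3 or MoDC replicate 2 or after quantile normalization it was 2. With the 6 arrays alone none of the list was called higher in MP. Among 8 measured receptors of cytokines and growth factors, *CSF1R*, *FLT3*, *XCR1* and *IFNAR2* (1.07 ± 0.27 SE) were higher in MP and *IL2RA* higher in MoDC (50% and 12.5%, beside 17.2% and 13% of all genes). Without MP replicate 2 or after quantile normalization the count higher in MP was 2, and with normexp or the 6 arrays alone it was 1, near the share of all genes. *IFNAR2* fell under the 2-fold limit without MP replicate 1 (0.94) or MoDC replicate 1 (0.86), after quantile normalization (0.93), with normexp (0.87) and in the series table (0.85), and was not called with the 6 arrays alone (adjusted p = 0.18). *IL2RA*, the alpha chain of the interleukin-2 receptor, was -5.39, -6.80 and -3.86 in MP, above background on 1 array, and -1.08, -2.06 and 0.97 in MoDC (-4.63 ± 0.60 SE, adjusted p = 0.000215). Its difference was -1.87 with normexp and -3.04 in the series table.

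Markers of other cell types also differed between the groups. Of 6 measured T and NK cell markers, *CD3D* and *CD3E*, subunits of the T cell receptor complex, were higher in MP. *CD3D* was -2.23, -3.22 and -0.92 in MP and below background on all MoDC arrays, at least 11.99-fold higher in MP on this scale (adjusted p = 1.82e-05). It was 3.52-fold higher with normexp and 6.06-fold in the series table, below that bound but called in both. *CD3E* was -0.0038, -0.71 and 0.92 in MP and -3.96, -3.36 and -2.53 in MoDC, above background on all 6 arrays (3.35 ± 0.39 SE, adjusted p = 0.000103). *IL2RA*, *GNLY* and *CTLA4* were higher in MoDC. These are 33.3% and 50% of the list, beside 17.2% and 13% of all genes, and with the 6 arrays alone the count higher in MoDC was 1. *GNLY*, which encodes the lytic peptide granulysin, was -6.43, -1.82 and -4.75 in MP and 0.23, -1.78 and -0.31 in MoDC (adjusted p = 0.00906), with no difference on slide 2 (-0.04), and its mean difference of -3.71 was -1.85 with normexp and -2.68 without MoDC replicate 1. *CTLA4* was above background on 1 MP array and was not called with normexp (-0.17). The summed linear level of the 6 genes was 1.07 to 2.63 on the MP arrays and 0.839 to 2.99 on the MoDC arrays, in units of the array's 75th percentile.

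Of 6 measured erythroid, platelet and granulocyte markers, *CATHL3*, *BAC5* and *LTF* were higher in MoDC, the first pair encoding cathelicidin peptides and the last lactoferrin, all stored in neutrophil granules (50%, beside 13% of all genes). The count higher in MoDC was 1 without MP replicate 1, MP replicate 3 or MoDC replicate 1, and 4 with normexp, in the series table and with the 6 arrays alone. *CATHL3* was -6.38, -1.98 and -4.65 in MP and 3.35, 2.02 and 2.93 in MoDC (-7.10 ± 1.98 SE, adjusted p = 0.0172). It was above background on 2 MP arrays, and its difference was -5.04 with normexp, -6.11 in the series table and -5.92 without MP replicate 1. *BAC5* was -6.13, 0.26 and -2.12 in MP and 4.06, 3.09 and 4.05 in MoDC (-6.39 ± 2.28 SE, adjusted p = 0.0487), with a difference of -4.97 with normexp and -4.79 without MP replicate 1. *LTF* was -2.75, -0.99 and -3.41 in MP and 1.54, -0.20 and 0.96 in MoDC (-3.15 ± 0.68 SE, adjusted p = 0.00475). MP replicate 2 was the highest MP array in all 3. *CATHL1B*, another cathelicidin, followed the same order (-6.51, 1.103 and -1.20 in MP, 4.82, 3.59 and 5.12 in MoDC) but was not called (adjusted p = 0.0998). It was called with normexp (-5.46, adjusted p = 0.00748), in the series table (-5.72, adjusted p = 0.0314) and with the 6 arrays alone (adjusted p = 0.0284). *BAC5* lost the call without any single one of the arrays other than MP replicate 2 (adjusted p from 0.0744 to 0.187), and *CATHL3* lost it without MP replicate 1 or 3 (adjusted p = 0.0748 and 0.0554) or MoDC replicate 1 (adjusted p = 0.054). The hemoglobin gene *HBB* was below background on all 6 arrays, and the platelet gene *SELP* was higher in MP (2.50 ± 0.43 SE, adjusted p = 0.00129), above background on 1 MoDC array, a call lost with normexp (0.79) and in the series table (0.66). The summed linear level of the 6 genes was 0.267 to 4.18 in MP and 25.5 to 60.8 in MoDC. The stromal gene *DCN*, which encodes the matrix proteoglycan decorin, was below background on all MP arrays and between -3.66 and -3.20 in MoDC, at least 2.64-fold higher there on this scale (adjusted p = 0.00035). With normexp it was not called, at 1.25-fold (adjusted p = 0.512), and in the series table it was 3.19-fold higher. *CR2*, the only measured B cell marker, was above background on 1 MP array and higher in MoDC (-2.42 ± 0.86 SE, adjusted p = 0.0477), a call that was lost with normexp (-0.62), in the series table (-1.54), without the slide block (adjusted p = 0.0709), without MP replicate 1 (-1.49, adjusted p = 0.216) or 2 (adjusted p = 0.152) and without MoDC replicate 1 (adjusted p = 0.152) or 3 (adjusted p = 0.0934). The part of such cells in the differences given above was not tested.

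Genes of cell division, redox balance and proteolysis were measured in small numbers. *PCNA*, the clamp of DNA replication, was 0.17, 1.22 and 0.58 in MP and 3.11, 3.55 and 4.27 in MoDC (-2.99 ± 0.37 SE, adjusted p = 0.000162). *TBA1A*, an alpha tubulin gene, was 5.38-fold higher in MoDC (adjusted p = 0.00159). *KI67* (-1.91 ± 0.78 SE) and *MYC* (0.33 ± 0.43 SE), the other 2 proliferation genes measured, were not called. *KI67* was called higher in MoDC after quantile normalization (-2.06, adjusted p = 0.048), in the series table (-1.72, adjusted p = 0.0185) and without MP replicate 2, which made 3 of the 4 genes in place of 2 (50%, beside 13% of all genes). *TXN*, the gene of thioredoxin, was between 3.36 and 3.65 in MP and 5.29, 5.40 and 6.11 in MoDC (-2.06 ± 0.26 SE, adjusted p = 0.00016), and with *LTF* it made 2 of the 4 redox and iron genes measured (50%, beside 13% of all genes). The protease gene *CAPN3* was 14.7-fold higher in MoDC (-3.88 ± 0.51 SE, adjusted p = 0.000229). *SERPINA1*, which encodes the inhibitor alpha-1-antitrypsin, was 0.38, 2.58 and 1.21 in MP and 0.29, -2.78 and -7.56 in MoDC. Its difference of 4.74 ± 1.65 (SE, adjusted p = 0.0447) fell to 2.08 without MoDC replicate 3 (adjusted p = 0.162), and the call was also lost without MoDC replicate 2 (adjusted p = 0.0758) or any single MP array (adjusted p from 0.05 to 0.169). It was 2.86 with normexp and 2.66 in the series table. The survival genes did not all go one way. *BCL2L1* was higher in MoDC (-2.96 ± 0.56 SE, adjusted p = 0.00231), above background on 1 MP array and at -1.03 with normexp. So was *BCL2* (-1.59 ± 0.46 SE), which was lost without MoDC replicate 3 (-1.15) or MP replicate 2 (-1.01). *MCL1* differed toward MP (0.991) and was not called, nor was it with normexp (0.803). It was called higher in MP after quantile normalization (1.496, adjusted p = 0.0143) and in the series table (1.397, adjusted p = 0.00618). No gene was called among 4 measured pattern recognition genes, where *TLR2* differed by 0.17 ± 0.51 (SE), or among 3 measured antigen presentation genes, where *B2MG*, the beta-2-microglobulin gene, differed by 0.22 ± 0.32 (SE). These lists are small, and 30.2% of all genes were called.

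Several of the largest differences fell outside these groups. *EDN1*, which encodes the vasoconstrictor endothelin-1, was -6.44, -4.40 and -7.72 in MP, above background on 1 array, and 1.35, 1.61 and 1.49 in MoDC (-7.67 ± 0.63 SE, adjusted p = 1.04e-05). Its difference was smaller with normexp (-4.17, 18-fold) and in the series table (-5.49, 45-fold), and called in both. Without MP replicate 3 it was -6.79. *CA1*, a carbonic anhydrase gene, was below background on all MP arrays and -0.89, -0.07 and -1.23 in MoDC, at least 17.3-fold higher there (adjusted p = 3.86e-06), but 5.47-fold with normexp. *SHMT1*, an enzyme gene of folate metabolism, was likewise below background in MP and at least 25.3-fold higher in MoDC (adjusted p = 0.000478), but 5.94-fold with normexp and 24.3-fold in the series table, although MoDC replicate 3 (-3.02) lay well under the others (0.95 and 1.52). *KLK1*, which encodes tissue kallikrein, was at least 5.71-fold higher in MoDC (adjusted p = 0.000291), but 2.05-fold with normexp. Toward MP, *ZFP36*, the gene of a protein that destabilises cytokine mRNA, was 0.54, 1.57 and 0.17 in MP and -0.33, -3.10 and -4.56 in MoDC (3.43 ± 0.70 SE, adjusted p = 0.00334). The gap was 0.87 on slide 1 and over 4 units on the other slides. The mean difference was 2.28 in the series table and 2.71 without MoDC replicate 3. *PYGM*, a glycogen phosphorylase gene, was below background on all MoDC arrays and at least 4.01-fold higher in MP (adjusted p = 0.000139), but 2.01-fold with normexp and 2.63-fold in the series table.

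Of 7 measured housekeeping genes, *HPRT1* alone was called, higher in MP (14.3% of the list, beside 17.2% of all genes higher in MP). Its difference of 1.04 ± 0.24 (SE, adjusted p = 0.00745) was just past the 2-fold limit, and it fell under that limit without MP replicate 1 (0.97), MP replicate 2 (0.91) or MoDC replicate 2 (0.93) and with normexp (0.90). *GAPDH* was 4.79, 4.91 and 4.47 in MP and 7.04, 6.02 and 2.53 in MoDC. The glycolytic gene was thus above MP in MoDC replicates 1 and 2 and below it in replicate 3, and its difference of -0.48 ± 0.81 (SE, adjusted p = 0.673) became -1.89 without that array (adjusted p = 0.0042). In the series table it was called higher in MoDC with all arrays (-1.41, adjusted p = 0.0378).

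**Figure D3:**
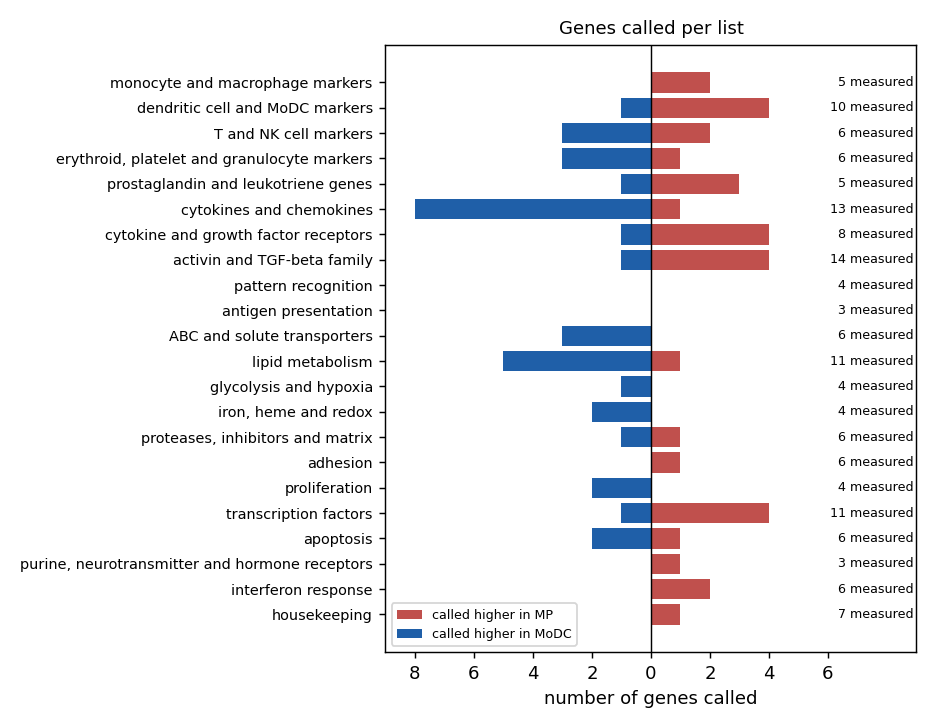
Number of genes called per list, to the right where higher in MP and to the left where higher in MoDC, with the number of measured genes of each list at the right edge (lists with at least 3 measured genes, some genes in several lists). Cytokines and chemokines have the longest bar toward MoDC (8 of 13), and the prostaglandin bar toward MP (3 of 5) counts 1 sequence under 2 names.

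The comparison was repeated without MoDC replicate 3. Of the 270 named genes 121 were then called, beside 33% of all genes, and 100 of the 116 calls made with all arrays were among them. The 16 that were lost included *BAC5*, *SERPINA1*, *VEGFA* and *TSPO*, and no called gene changed direction. Another 21 genes were called, 15 higher in MP and 6 higher in MoDC. In total 53 were then higher in MP (18.2% of all genes) and 68 higher in MoDC (14.8% of all genes). The adhesion gene *ICAM1* was one of the latter, at 1.24 and 1.13 on MoDC replicates 1 and 2 and -1.005 on replicate 3, with a difference of -2.42 in place of -1.495. With all arrays it was called higher in MoDC after quantile normalization (-1.58, adjusted p = 0.0414), with normexp (-1.17, adjusted p = 0.04996) and in the series table (-1.74, adjusted p = 0.000868). MoDC replicate 3 lay at least 2-fold above both other MoDC arrays in 43 named genes and at least 2-fold below both in 48. The median SD over named genes was 0.53 in MP, 0.71 in MoDC and 0.38 over MoDC replicates 1 and 2.

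**Figure D4:**
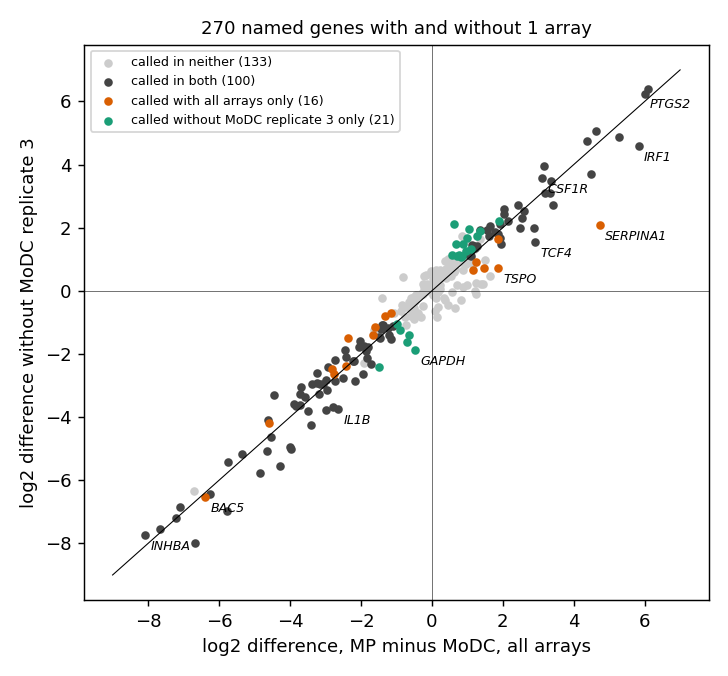
Log2 difference between MP and MoDC of each of the 270 named genes with all arrays (horizontal axis) and without MoDC replicate 3 (vertical axis), coloured by where the gene was called. The line marks equal values, 100 genes are called in both, and *SERPINA1* (4.74 against 2.08), *TSPO* (1.86 against 0.72) and *GAPDH* (-0.48 against -1.89) lie off the line.

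Genes that the study listed for MoDC were few on the named part of this array. Of 104 genes in its signature of MoDC over monocytes and macrophages 4 were measured here, and *SLAMF1*, *VEGFA* and *TBA1A* were called higher in MoDC (75%, beside 13% of all genes) and *PRNP* was not called. That signature was chosen in part on these arrays and is no independent evidence of direction. Of the 9 measured genes of its mouse MoDC list 5 were higher in MoDC (*INHBA*, *MIF*, *IGF1*, *VEGFA* and *SLC17A5*), *ERA* was higher in MP and 3 were not called. These are 55.6% higher in MoDC, beside 13% of all genes, and 3 of 9 were so with normexp or the 6 arrays alone. Of its human MoDC list, *HSD11B1* was higher in MoDC and *SLC2A3* was not called. *IGF1* and *HSD11B1* were below background on all MP arrays and were not called with normexp (-0.49 and -0.08). Of its lists of monocytes and macrophages over dendritic cells, *SLC11A1* (human) and *PGD* and *PYGL* (mouse) were measured and not called.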

How the data were processed

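RNA was hybridised, 1 sample per array, to custom ovine Agilent arrays. Per the file headers, Agilent Feature Extraction was used by the authors, and the deposited intensity is background-corrected on a linear scale and not normalized between arrays. The deposited flags mark spots well above background and outlier spots, which are flags of 0 or 1 under the unit other, and the deposited series table holds log2 values whose method is not given in the sources used here. The submitters' processing notes name limma.

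Groups came from the labels. From the deposited intensities, log2 values minus the array's 75th percentile over 15208 non-control spots were computed. Outlier spots (273 over 17 arrays) were left out, and probes were kept that had over 50% of spots flagged as well above background on all arrays of 1 subset or more. Per gene the probe with the highest sum was used. Symbols were read from the files, or found by accession in RefSeq (ARS-UI_Ramb_v3.0). Tests used limma 3.58.1 in R 4.3.3, checked on simulated data, with slide as a block. Same-numbered MP and MoDC arrays share a slide by the file headers, so the numbers pair arrays by slide. Their deviations from the group means had correlations of 0.14, 0.15 and 0.25, and arrays with different numbers were not compared in this way. Whether a pair shares an animal was not tested. "At least" folds compare the brighter mean with the dim group's mean of, per array, the higher of its own value and the lowest signal well above background. The p-values measure spread between these arrays, and the number of arrays limits the precision.

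Genes named are the markers *ABCG2*, *PTGS2*, *CSF1R*, *IL1B* and *CD14*, the 12 with the largest called differences in each direction that held on all slides and without MoDC replicate 3, and up to 4 called members of each list. A gene that this rule names is not reported here. Others (among them *TNF*, *IL6*, *IL18*, *IFNAR2*, *PLIN2*, *TSPO*, *IL10*, *GAPDH*, *ICAM1*, *CATHL1B*, genes given as outside a list and genes given as not called) were chosen after their values were seen. The comparison, lists and rule were chosen with earlier results of these data known. Alternatives were no block, the 6 arrays alone, quantile, normexp, the series table, other filters and each array left out.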

Additional observations from a re-analysis of the deposited data

How the results depend on the processing

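Without the replicate block 2925 genes were called, 2912 of the 3416 called with it among them, and 112 named genes, 110 of the 116 called with it among them, and of the genes described *XCR1* and *CR2* were lost. With the 6 MP and MoDC arrays alone, block included, 1314 genes and 73 named genes were called, with fewer residual degrees of freedom. With normexp they were 2113 and 74 (cause not tested), and with probes above background on all 6 arrays 2205 and 56, with 30 list genes in place of 57 and 25 of the described genes in place of 54, since fewer genes were tested. Leaving out each array in turn gave 2638 to 3738 genes, 90 to 121 named genes, 45 to 54 list genes, 44 to 47 described genes and 4532 to 6462 genes not overlapping, in place of 4153, the highest of these without MoDC replicate 3, where 3 arrays are set against 2. The median difference of all genes was 0.22 with the 75th percentile, 0.09 after quantile normalization, 0.03 in the series table and 0.31 with normexp. Described genes are here those named by the rule, and none of them turned its direction except *CD14*, never called, at 0.14 after quantile normalization, 0.0036 in the series table, 0.40 with every probe and between -0.58 and 0.33 with single arrays left out. Quantile normalization ended the call of 3 described genes (*XCR1*, *BAC5* and *SERPINA1*), the series table that of 5 (among them *XCR1*, *CR2*, *SELP* and *ERA*), normexp that of 13 (*BMP4*, *FLT3*, *XCR1*, *CR2*, *SELP*, *DCN*, *SLCO2A1*, *BMP7*, *ABCB1*, *SCD*, *VEGFA*, *ERA* and *HPRT1*), no filter that of 3 (*CR2*, *BAC5* and *SERPINA1*), outlier flags kept that of *BAC5*, and the 6 arrays alone that of 11 (among them *IL1B*, *TCF4*, *FLT3*, *XCR1*, *GNLY*, *CR2*, *VEGFA*, *SERPINA1*, *BCL2* and *HPRT1*).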
